A study of Homo sapiens with 4 samples.

Results

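This report describes 39 interferon-stimulated genes, the guanylate-binding proteins GBP1, GBP2 and GBP3 among them, in 2 human liver tumour cell lines whose COP1 was lowered with an siRNA. The genes come from a list fixed by name, and all 39 were found among the 46427 gene numbers of the expression tables. Huh7 and HepG2 are established lines, labelled as hepatocellular carcinoma. Cells of each line received either a negative control (NC-siRNA, with the genotype labelled WT) or the siRNA that targets COP1 (COP1-siRNA, labelled COP1 Knockdown), at 20 nM with Lipofectamine for 5 h, and polyadenylated RNA was taken at 48 h. There was 1 library per line and siRNA, 4 in all, and no label names an interferon treatment or an infection. Every culture, the controls included, was exposed to an siRNA with lipid, and the share of cells that took it up is unknown. All 4 libraries carry the same batch label. With 1 library in each condition no difference within a line has a replicate check or could be tested, a test across the lines as 2 pairs was not run, and no p-value is given.

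Interferons are secreted proteins that cells release on sensing viral or other foreign nucleic acid. They bind receptors whose kinases switch on transcription factors, and complexes that hold STAT2 and IRF9 bind an element called ISRE in front of many genes. A further element of interferon responses is called GAS. The products of these genes sense and degrade viral RNA, block entry and release of virus particles, attach the ubiquitin-like protein ISG15 to other proteins, or, in the case of the guanylate-binding proteins, coat intracellular pathogens. COP1 is an E3 ubiquitin ligase, whose known substrates include factors of the AP-1 family.

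The promoters of these genes show how much they share in sequence that the list did not use. Of the 39 genes, 31 were found in the RefSeq promoter table of GRCh38.p14, which holds 250 bases before and 50 after each transcription start. An ISRE, written as GAAANNGAAA and searched on both strands, was present in 23 of the 31 genes (74.2%), against 4.38% of the 27305 genes in the table. There were 15 genes with more than 1 such element. GAS, as TTCNNNGAA, was present in 9 of 31 (29.03%, against 9.38% of all genes), and in IFITM1, BST2, MX1 and IFI27 it overlapped an ISRE. The AP-1 element TGANTCA was present in 4 of 31, IFIT5, ISG20, GBP3 and MX1 (12.9%, against 9.37%). The elements below belong to the genes on which the expression results turn, with the ISRE in capitals and each sequence read 5′ to 3′ on the strand of its gene.
GBP1: aacgaagtacTTTCAGTTTCatattactct
GBP3: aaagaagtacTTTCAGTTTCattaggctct
ISG15: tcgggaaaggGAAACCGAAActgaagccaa
IFITM3: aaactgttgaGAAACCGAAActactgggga
IFITM1: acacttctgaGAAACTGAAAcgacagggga
IFI27: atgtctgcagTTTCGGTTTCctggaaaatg
PARP9: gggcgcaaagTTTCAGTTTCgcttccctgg
DTX3L: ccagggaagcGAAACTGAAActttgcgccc
CXCL10: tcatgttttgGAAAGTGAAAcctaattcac

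In GBP1 (chr1:89065316-89065345, minus strand) and GBP3 (chr1:89022845-89022874, minus strand) the element had the same letters in reverse orientation. Counted from the start, its first base was at −127 in GBP1 and at 3 in GBP3. PARP9 and DTX3L are transcribed in opposite directions, and both printed windows are the same site, chr3:122564322-122564351, read from the minus and the plus strand. The windows of ISG15 (chr1:1013380-1013409, plus strand), IFITM3 (chr11:320876-320905, minus strand), IFITM1 (chr11:314024-314053, plus strand), IFI27 (chr14:94110618-94110647, plus strand) and CXCL10 (chr4:76023699-76023728, minus strand) began before the start. No ISRE of these letters was in the windows of STAT2, IRF9, OAS1, HERC6, SAMHD1, CMPK2, IFI35 and XAF1. IRF7, IFIT2, OAS2, OASL, IFITM2, USP18, TRIM22 and GBP2 were not in the table. A match of letters is a description of the sequence and does not show that a factor was bound.

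The targeted gene was lower in both lines. COP1 was measured at 19.7 TPM (a level per transcript length that sums to the same total in every library) in the Huh7 control library against 6.18 TPM after knockdown, which is 31.4% of the control. The HepG2 values were 26.9 and 16.1 TPM, which is 59.9%. Relative depth, taken as coverage divided by FPKM because read counts are not in the tables, was 1.13 times as large in the Huh7 COP1-siRNA library as in its control and 1.27 times in HepG2. All 12 genes used by every cell that were checked were above 0 in each library, the lowest at 18.8 TPM. All 8 hepatocyte markers were at 1 TPM or more in each library, while the leukocyte genes PTPRC, CD3E and NKG7 were listed at 0 throughout. The 7 leukocyte markers summed to between 167 and 209 TPM, nearly all from LYZ and CD68, and LUM, from the list of fibroblast markers, was at 121 TPM in both Huh7 libraries.

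Most of the 39 genes were under 10 TPM in each library, and a few carried most of the signal. In the Huh7 libraries 19 genes with NC-siRNA and 20 with COP1-siRNA were at 1 TPM or more, and in HepG2 25 and 27 were. The share over all 46427 genes was smaller, with 12594 and 12751 at this level in Huh7 and 14067 and 14138 in HepG2. Listed at 0 were 13 and 11 of the 39 genes in Huh7, and 3 in each HepG2 library. Over all genes these counts were 27209 and 26288 in Huh7 and 24904 and 24114 in HepG2. The summed level of the 39 genes was 415 TPM in Huh7 and 309 TPM in HepG2 with NC-siRNA, and 386 and 340 TPM with COP1-siRNA. The 6 genes with the highest mean level were IFITM3, SAMHD1, ISG15, USP18, IFITM2 and DTX3L. There were 15 genes at 1 TPM or more in every library (STAT2, IRF9, IFIT3, IFIT5, ISG20, IFITM2, IFITM3, ISG15, USP18, DTX3L, PARP9, MX1, SAMHD1, IFI6 and IFI35).

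At the other end, 10 genes were under 1 TPM in all 4 libraries, namely DDX60, OAS2, OASL, TRIM22, GBP3, CMPK2, RSAD2, IFI44, IFI44L and XAF1. RSAD2, which encodes the antiviral enzyme viperin, and IFI44 were listed at 0 in every library. Several of these belong to the genes that interferon raises most in other cells, such as RSAD2, CMPK2, its neighbour on the opposite strand, and OASL. The highest value among the other 8 was 0.960 TPM, for GBP3 in Huh7 with COP1-siRNA. MX1, an antiviral GTPase widely used as a marker of the response to type I interferon, was barely above 1 TPM, with 1.09 and 1.06 TPM in Huh7 and 1.22 and 1.21 TPM in HepG2 with NC-siRNA and COP1-siRNA. Whether a low value reflects few cells with the transcript or little in each cell cannot be told apart in RNA of a whole culture.

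**Figure D1:**
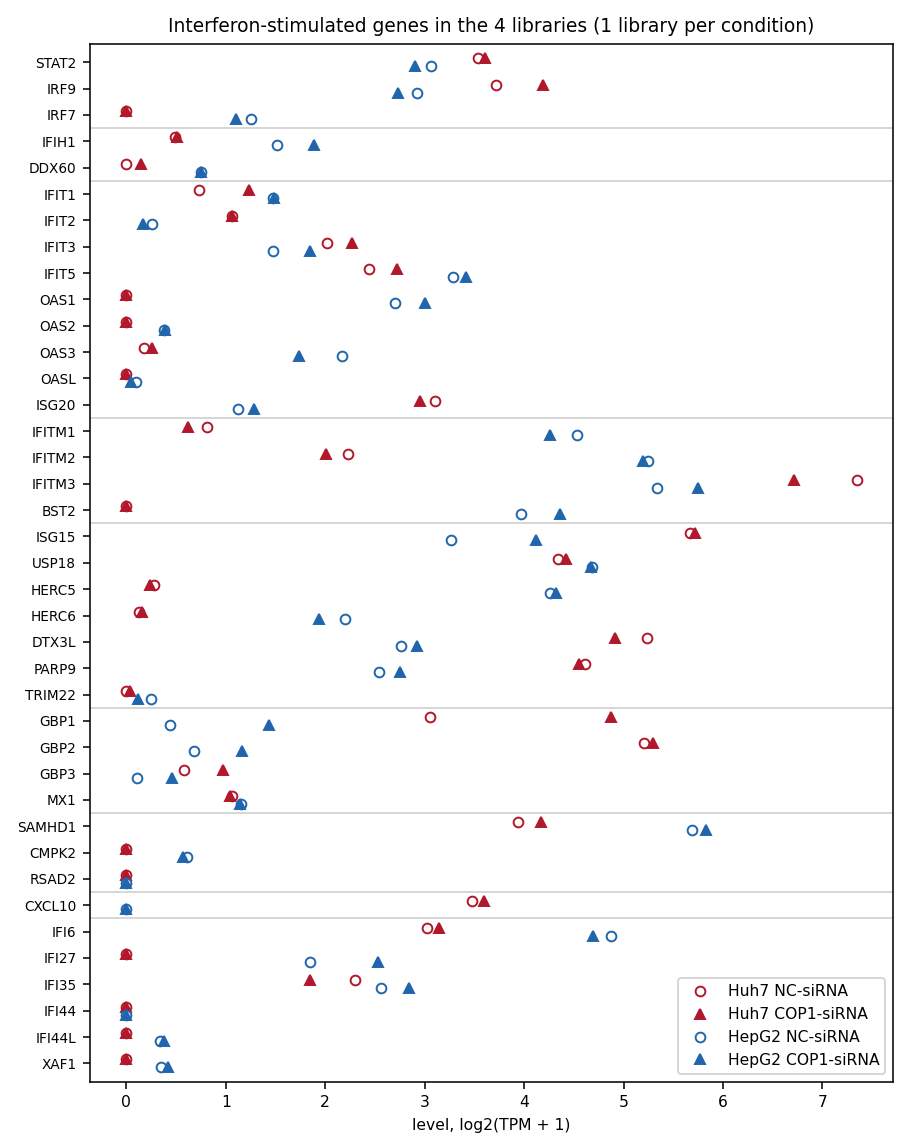
Level of each of the 39 genes on the log2(TPM + 1) scale in the 4 libraries, with genes grouped by role from transcription factors at the top to other induced proteins at the bottom. Open circles are NC-siRNA and triangles COP1-siRNA libraries, and the wide gaps between red (Huh7) and blue (HepG2) points for IFITM1, BST2, HERC5, GBP2 and CXCL10 are larger than the gaps between the siRNAs in either line.

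More of the genes were past 2-fold between the lines than between the siRNAs in either line. The same held over all compared genes, whose shares past 2-fold between the siRNAs are given further below. A gene was compared where at least 1 of the libraries was at 1 TPM or more, and a fold is the ratio of TPM + 1, which understates the difference of low genes. With NC-siRNA, 8 of 29 compared genes were at least 2-fold higher in Huh7 (14.7% of all 15055 compared genes were) and 12 of 29 were at least 2-fold higher in HepG2 (27.9% of all were). Of these 20 genes, 19 kept a difference of at least 2-fold in the same direction with COP1-siRNA. The matching share over all compared genes was not computed, so whether this is particular to the list is unknown. The exception was IFITM3, whose Huh7 minus HepG2 difference went from 2.01 to 0.96 on the log2 scale.

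Among the genes higher in Huh7 were GBP1 and GBP2, the PARP9 and DTX3L pair and ISG15. GBP2 was measured at 35.8 and 38.2 TPM in Huh7 and at 0.602 and 1.23 TPM in HepG2 with NC-siRNA and COP1-siRNA, a line difference of 4.52 on the log2 scale in the controls. DTX3L, an E3 ubiquitin ligase that acts together with the ADP-ribosyltransferase family protein PARP9, was at 36.7 and 29.2 TPM in Huh7 against 5.79 and 6.56 TPM in HepG2. PARP9 was at 23.5 and 22.4 TPM against 4.80 and 5.74 TPM, so the genes that share an ISRE were both higher in Huh7, by 2.47 for DTX3L and 2.08 for PARP9. Their transcribed regions also overlap by a short stretch on opposite strands, and how reads there were divided is not given in the sources used here. ISG20, an exonuclease, was at 7.59 and 6.77 TPM in Huh7 against 1.17 and 1.44 TPM in HepG2. CXCL10, the chemokine of the list, was at 10.1 and 11.1 TPM in Huh7 and listed at 0 in both HepG2 libraries.

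The genes higher in HepG2 included 3 of the 4 membrane proteins, both HERC ligases, and OAS1 and OAS3. HERC5, the main ligase that attaches ISG15, was at 18.2 and 19.0 TPM in HepG2 and 0.213 and 0.179 TPM in Huh7. Its neighbour HERC6 was at 3.58 and 2.83 TPM against 0.0931 and 0.113 TPM. The enzyme and its modifier therefore lay on opposite sides: ISG15 was higher in Huh7, where HERC5 was under 1 TPM. IFITM1, which hinders virus entry at the plasma membrane, was at 22.1 and 18.2 TPM in HepG2 against 0.752 and 0.531 TPM in Huh7. IFITM2, which acts in endosomes, was at 37.0 and 35.7 TPM against 3.70 and 3.01 TPM. IFITM3, which also acts in endosomes, went the other way, with 161 and 104 TPM in Huh7 and 39.3 and 52.6 TPM in HepG2.

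There were 4 genes listed at 0 in both Huh7 libraries and at 1 TPM or more in both HepG2 libraries. BST2 (tetherin, which holds new virus particles on the cell) was at 14.6 and 19.6 TPM in HepG2. OAS1, which makes the second messenger that switches on RNase L, was at 5.51 and 7.04 TPM. IFI27 was at 2.59 and 4.79 TPM, and IRF7, the factor that amplifies interferon production, at 1.38 and 1.15 TPM. No fold is given for these, since one side is listed at 0. SAMHD1, which breaks down the nucleotides needed for reverse transcription, was present in both lines and higher in HepG2, with 50.6 and 55.8 TPM against 14.4 and 17.0 TPM in Huh7. IFI6, a mitochondrial and endoplasmic reticulum protein, was at 28.4 and 24.8 TPM against 7.15 and 7.83 TPM. IFIH1 (MDA5, a sensor of long double-stranded RNA) and OAS3 were the remaining genes at least 2-fold higher in HepG2, at 1.86 and 3.50 TPM with NC-siRNA against 0.402 and 0.128 TPM in Huh7.

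**Figure D2:**
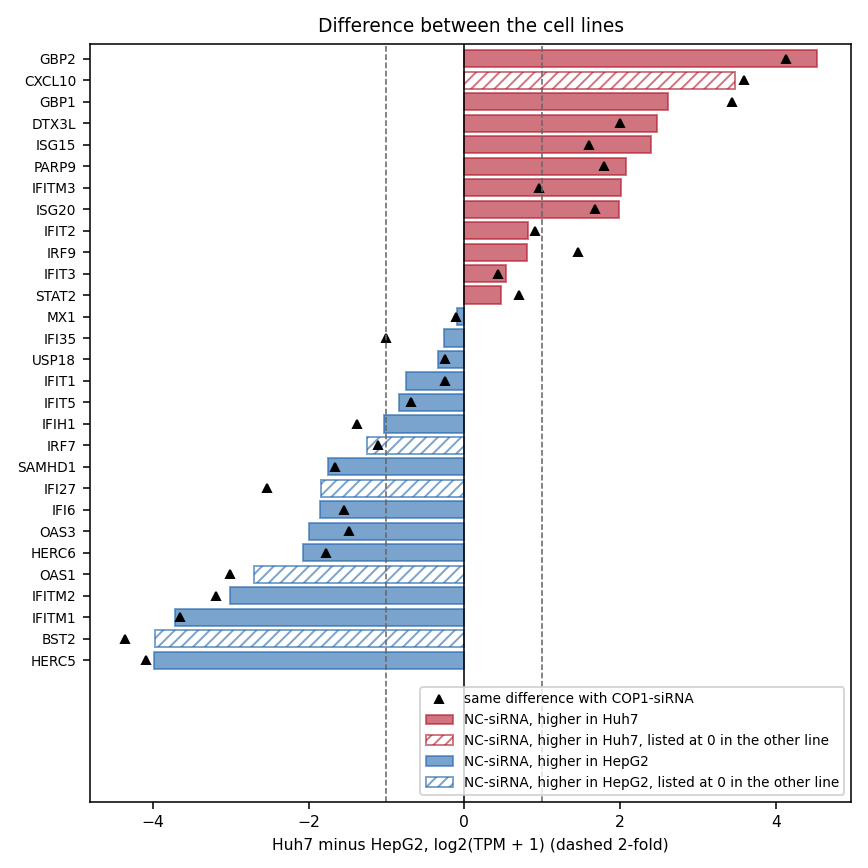
Huh7 minus HepG2 difference in log2(TPM + 1) for the 29 genes compared, as bars for NC-siRNA and triangles for COP1-siRNA, with hatched bars where one line is listed at 0 and dashed lines at 2-fold. The triangles lie on the same side as the bars for every gene, and IFITM3 is the gene at 2-fold or more with NC-siRNA whose triangle falls inside the dashed line.

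With COP1-siRNA in Huh7, GBP1 had the largest difference of the compared genes in the list. Of 20 genes compared, 1 was at least 1.5-fold higher (2.8% of all 13000 compared genes were) and it was also at least 2-fold higher (0.638% of all). There was 1 gene at least 1.5-fold lower (2.68% of all) and 0 were at least 2-fold lower (0.446% of all). The higher gene was GBP1 and the lower gene IFITM3. The median log2 fold change of the 20 genes was 0.08, against −0.00 over all compared genes, with 12 of the 20 above 0 and 8 below. IFIT1 was under 1 TPM in the Huh7 control and was compared only through its COP1-siRNA value, so it could only be higher.

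GBP1 (gene 2633, chr1:89052319-89065208 on the minus strand of GRCh38) is a large GTPase that assembles into coats on bacteria and vacuoles. Its Huh7 level was 7.29 TPM in the control and 28.2 TPM after knockdown (log2 fold change 1.82), or 3.87 times as a plain TPM ratio. In HepG2, where it was far lower, it was at 0.352 and 1.70 TPM (log2 fold change 1.00), with a plain ratio of 4.82. On the log2(TPM + 1) scale the HepG2 value was just short of 2-fold, while the plain ratio was the larger of the pair. The coverage multiplied by the transcript length corresponds to about 56479 and 257877 aligned bases in Huh7 but only 2539 and 15332 in HepG2, so the HepG2 ratio rests on far fewer reads. The study itself picked GBP1 from these libraries as a gene with higher expression in both lines. The limits of the study were a fold change of at least 2 and a p-value, on a measure that its text does not name. The direction of GBP1 here is therefore not independent evidence.

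GBP2 and GBP3, the neighbours of GBP1, were also higher with COP1-siRNA in both lines. GBP2 had a log2 fold change of 0.09 in Huh7 and 0.48 in HepG2, from the levels given above, and plain TPM ratios of 1.07 and 2.05. GBP3 was under 1 TPM everywhere, with 0.492 and 0.960 TPM in Huh7 and 0.0746 and 0.372 TPM in HepG2, below the level at which genes were compared. Its plain ratios were 1.95 and 4.99, the HepG2 one as large as that of GBP1 but at under 1 TPM. Outside the 39 genes, GBP4 was listed at 0 in all libraries, and GBP5 was at 0.0521 TPM in the Huh7 control and listed at 0 in the other three. The coding sequences of GBP1 and GBP3 were 90.6% identical, against 82.0% for GBP1 and GBP2, so some reads of GBP1 and GBP3 could have been assigned to the wrong copy. Summed over GBP1, GBP2 and GBP3, which such an error would not touch, the level was 43.6 and 67.3 TPM in Huh7 and 1.03 and 3.30 TPM in HepG2 (log2 fold changes 0.62 and 1.08).

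IFITM3 (gene 10410, chr11:319676-320860, minus strand), the gene of the list with the highest mean level over the 4 libraries, was at 161 TPM in the Huh7 control and 104 TPM with COP1-siRNA (log2 fold change −0.64). In HepG2 it was at 39.3 and 52.6 TPM (log2 fold change 0.41). It was thus lower with COP1-siRNA in one line and higher in the other, and the line difference of IFITM3 narrowed accordingly. With FPKM in place of TPM the Huh7 value was −0.57, short of 1.5-fold. IFITM1 and IFITM2 had log2 fold changes of −0.19 and −0.23 in Huh7 and of −0.27 and −0.05 in HepG2. All 3 genes lie side by side at chr11:308107-320860, and the coding sequences of IFITM2 and IFITM3 were 93.2% identical, so the split between these is uncertain. Their sum was 166 and 107 TPM in Huh7 and 98.4 and 106 TPM in HepG2 (log2 fold changes −0.63 and 0.11).

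In HepG2 more of the genes lay above 0 than below. Of 27 genes compared, 3 were at least 1.5-fold higher with COP1-siRNA, ISG15, GBP1 and IFI27 (2.56% of all 14456 compared genes were), and 0 were at least 1.5-fold lower (1.87% of all). None was at least 2-fold higher (0.54% of all) or lower (0.394% of all). The median log2 fold change was 0.14, against −0.01 over all compared genes, with 17 of the 27 above 0 and 10 below, where 6988 of all 14456 genes were above 0. GBP1 and GBP2 were under 1 TPM in the HepG2 control and were compared only through their COP1-siRNA values, so both could only be higher. With no minimum TPM the median was 0.0175. Hepatocyte markers differed in the same library: 8 of 8 were higher with COP1-siRNA in HepG2, with a median log2 fold change of 0.41, whereas in Huh7 1 of 8 was higher, with a median of −0.09. Their part in the values of the interferon-stimulated genes was not tested.

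ISG15 (gene 9636, chr1:1013497-1014540, plus strand), the ubiquitin-like modifier, was at 8.62 and 16.4 TPM in HepG2 (log2 fold change 0.86), and at 49.7 and 51.7 TPM in Huh7 (log2 fold change 0.06). Even with COP1-siRNA its HepG2 level was below that of either Huh7 library. IFI27 (gene 3429, chr14:94110736-94116690, plus strand), a small mitochondrial protein gene, was at 2.59 and 4.79 TPM in HepG2 (log2 fold change 0.69), and listed at 0 in Huh7. The HepG2 values of IFI27 correspond to about 3632 and 8330 aligned bases, among the smaller amounts of sequence behind a compared gene. With FPKM in place of TPM, IFI27 at 0.52 and GBP1 at 0.58 in HepG2 were no longer past 1.5-fold, while ISG15 was, at 0.76.

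The compared ligases and the protease around ISG15 were within 1.5-fold, in Huh7 USP18, DTX3L and PARP9, and in HepG2 these with HERC5 and HERC6. USP18, which removes ISG15 and restrains the interferon receptor, was at 24.6 and 24.4 TPM in HepG2 and 19.2 and 20.4 TPM in Huh7 (log2 fold changes −0.01 and 0.08). USP18 has a close copy, USP41P, and the sum of these genes was 27.0 and 27.4 TPM in HepG2. HERC5 had a log2 fold change of 0.06 in HepG2, HERC6 −0.26, DTX3L 0.15 and PARP9 0.22. In Huh7 DTX3L had −0.32 and PARP9 −0.07. TRIM22, a ubiquitin ligase that was compared in neither line, was at most 0.191 TPM in any library.

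Among the transcription factors, IRF9 and STAT2 were above 0 in Huh7 and below 0 in HepG2, all within 1.5-fold. IRF9, the DNA-binding partner of STAT2, was at 12.2 and 17.3 TPM in Huh7 (log2 fold change 0.47), and at 6.56 and 5.63 TPM in HepG2 (log2 fold change −0.19). STAT2 was at 10.6 and 11.2 TPM in Huh7 and 7.36 and 6.49 TPM in HepG2, and IRF7 had a log2 fold change of −0.15 in HepG2. IRF7 was not compared in Huh7, where it was listed at 0.

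The RNA sensors and RNA-binding effectors were low and lay within 1.5-fold on the log2(TPM + 1) scale. IFIH1 was at 1.86 and 2.69 TPM in HepG2 (log2 fold change 0.37), and under 1 TPM in Huh7. IFIT1, which binds viral RNA lacking a methylated cap, was at 0.654 and 1.35 TPM in Huh7 (log2 fold change 0.51), and at 1.77 and 1.80 TPM in HepG2. Its plain TPM ratios were 2.07 and 1.02, the Huh7 one from a control under 1 TPM. IFIT3, the partner of IFIT1, was at 3.04 and 3.83 TPM in Huh7 and 1.78 and 2.60 TPM in HepG2. IFIT5 was at 4.44 and 5.61 TPM and at 8.76 and 9.65 TPM, while IFIT2 was at 1.09 TPM in both Huh7 libraries and under 1 TPM in HepG2. The summed level of these 4 genes, which lie together at chr10:89302046-89420997, was 9.23 and 11.9 TPM in Huh7 and 12.5 and 14.2 TPM in HepG2. Within the OAS family, OAS1 had a log2 fold change of 0.30 and OAS3 of −0.43 in HepG2, so their sum with OAS2 and OASL was nearly the same, at 9.38 and 9.71 TPM. ISG20 had −0.15 in Huh7 and 0.17 in HepG2.

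The remaining genes gave small values. BST2 had a log2 fold change of 0.40 in HepG2. SAMHD1 had 0.23 in Huh7 and 0.14 in HepG2, CXCL10 0.12 in Huh7, and IFI6 0.12 and −0.19. IFI35, a protein of the cytosol and nucleus, was at 3.91 and 2.60 TPM in Huh7 (log2 fold change −0.45), and at 4.91 and 6.19 TPM in HepG2 (log2 fold change 0.28). MX1 lay within 0.02 of 0 in both lines.

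**Figure D3:**
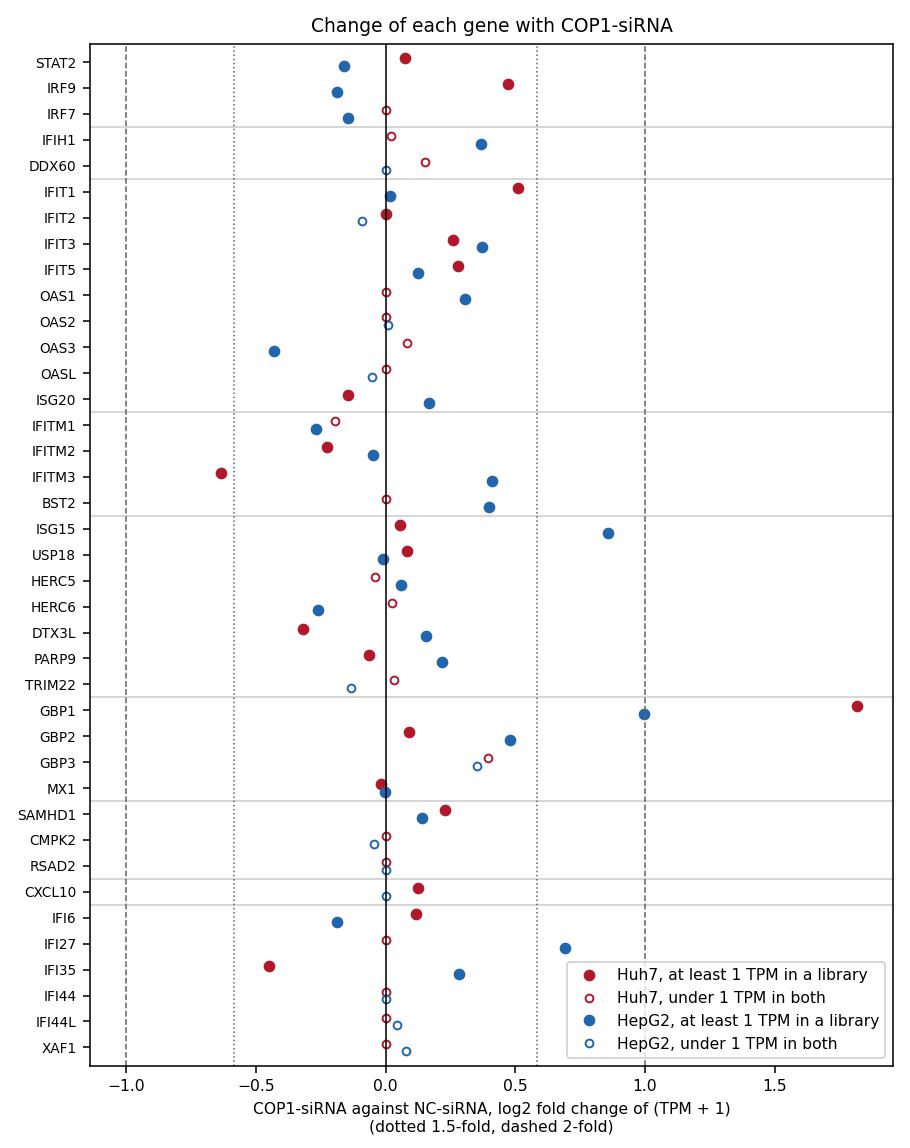
Log2 fold change of TPM + 1 with COP1-siRNA for each of the 39 genes, Huh7 in red and HepG2 in blue, with open symbols for genes under 1 TPM in both libraries of a line and dotted and dashed lines at 1.5-fold and 2-fold. GBP1 lies at 1.82 in Huh7, IFITM3 is the gene beyond the dotted line on the left, and ISG15, GBP1 and IFI27 are those beyond it on the right in HepG2.

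The direction was shared by the lines for part of the list. Of 18 genes compared in both lines, 9 had the same sign, 7 of them higher with COP1-siRNA in both (IFIT1, IFIT3, IFIT5, ISG15, GBP1, GBP2 and SAMHD1) and 2 lower (IFITM2 and MX1). IFIT1 in Huh7, and GBP1 and GBP2 in HepG2, reached the level for comparison only with COP1-siRNA. Their sign in that line was therefore fixed by the rule for comparing genes. The sign of MX1 depends on the measure, since with depth-scaled coverage in place of TPM it was at 0.09 in Huh7 and 0.15 in HepG2. Over all 11970 genes compared in both lines, 60.2% had the same sign and 29.2% were higher in both. GBP1 was at least 1.5-fold higher in both lines, as were 42 genes in all. A log2 fold change within 0.2 of 0 was seen for 10 of 20 genes in Huh7 and 13 of 27 in HepG2, against 61.8% and 65.8% of all compared genes.

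**Figure D4:**
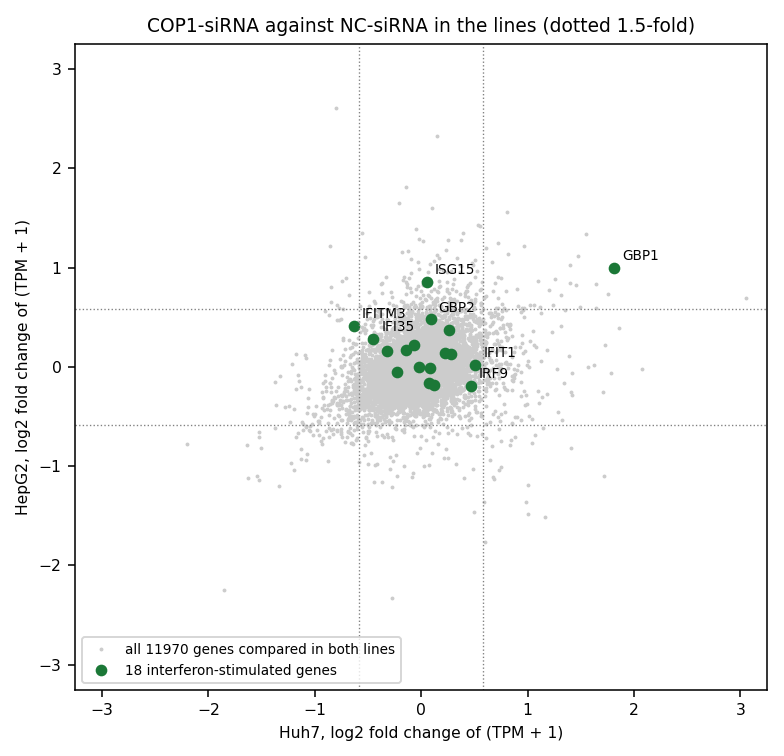
Log2 fold change with COP1-siRNA in Huh7 (horizontal) and HepG2 (vertical) for the 18 genes compared in both lines (green) over all 11970 such genes (grey). Among the green points GBP1 lies alone at the upper right, ISG15 is high on the vertical axis alone, IFITM3 lies at the upper left outside the line for Huh7, and the other genes lie within the dotted 1.5-fold lines.

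Receptors and several kinases and factors of the pathway were measured at well above 1 TPM, while the interferon genes were at or near 0. A list of 40 receptors, kinases, factors, sensors, inhibitors and cytokines of the interferon pathway had 26 genes compared in each line, and 0 of these were past 1.5-fold in either direction, beside 2.8% higher and 2.68% lower of all compared genes in Huh7 and 2.56% and 1.87% in HepG2. The median log2 fold change of these genes was −0.01 in each line. The receptor chain IFNAR1 was at 22.2 TPM in both Huh7 libraries and at 33.4 and 33.2 TPM in HepG2, and the receptor kinase JAK1 was at 107 and 112 TPM in Huh7 and 49.4 and 55.6 TPM in HepG2. IRF3, the factor that switches on interferon genes, was at 51.1 and 47.0 TPM and at 39.3 and 36.8 TPM. IRF1, a factor known to act on GBP genes, was at 5.89 and 8.59 TPM in Huh7 (log2 fold change 0.48), and at 4.15 and 4.70 TPM in HepG2 (log2 fold change 0.14). Other pathway genes were low, with IRF5, IRF8 and DHX58 listed at 0 in both Huh7 libraries and the DNA sensor CGAS under 1 TPM in all 4, these 4 genes being named after their values were seen. All 8 interferon genes checked, IFNB1 and IFNL1 among them, were listed at 0 in both Huh7 libraries and 7 of 8 in both HepG2 libraries, where IFNE was at 0.0365 and 0.0439 TPM.

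A second list held 50 further interferon-induced genes. In Huh7, 0 of 29 compared genes were past 1.5-fold in either direction, and the median log2 fold change was 0.06. In HepG2, 5 of 33 were at least 1.5-fold higher and 0 lower, against 2.56% and 1.87% of all compared genes, with a median of 0.11 and 25 of 33 above 0. UBA7, among the 5, and BATF2, among the 25, were compared only through their COP1-siRNA values and could only be higher. APOL1, a secreted protein that kills trypanosomes, was at 3.44 and 6.30 TPM in HepG2 (log2 fold change 0.72), and MX2, a GTPase related to MX1, at 2.89 and 5.26 TPM (log2 fold change 0.69). UBA7 and UBE2L6, the activating and conjugating enzymes that pass ISG15 on, were at 0.569 and 1.46 TPM and at 9.49 and 15.2 TPM (log2 fold changes 0.65 and 0.63). LGALS3BP, a secreted glycoprotein, was at 70.9 and 108 TPM (log2 fold change 0.61). The HepG2 hepatocyte markers named above were also higher in this library, and their part in these values was not tested. In Huh7 the level of MX2 was 69.1 and 84.2 TPM, that of UBE2L6 57.1 and 52.0 TPM, and that of LGALS3BP 4.15 and 3.75 TPM.

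**Figure D5:**
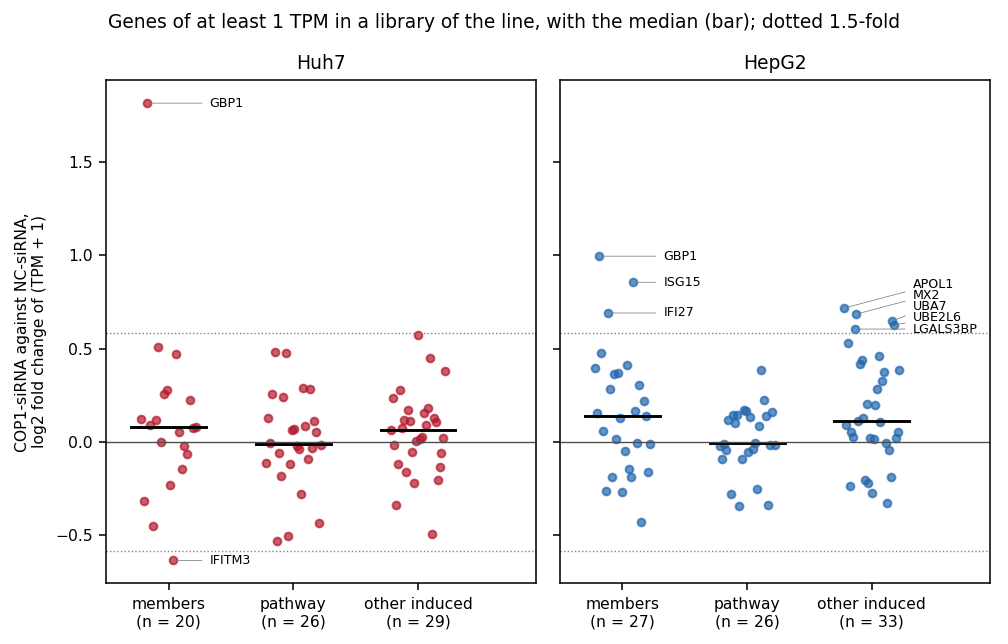
Log2 fold change with COP1-siRNA of each compared gene in the 39 listed genes (members), the interferon pathway list and the list of other induced genes, with a bar at the median and dotted lines at 1.5-fold. In Huh7 GBP1 and IFITM3 are the points outside the dotted lines, and in HepG2 the points outside are 3 members and 5 other induced genes, all above. Of those in HepG2, GBP1 and UBA7 reached the level for comparison only with COP1-siRNA and could only lie above 0.

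The genes with and without an ISRE in the promoter window are described side by side, with no test. In Huh7 the 12 compared genes with an ISRE had a median log2 fold change of 0.09, from −0.64 to 1.82, and the 4 without had 0.15. In HepG2 the 17 with an ISRE had 0.17, from −0.43 to 1.00, and the 6 without had −0.01. Past 1.5-fold in Huh7 were 2 of the 12 genes with an ISRE and 0 of the 4 without. In HepG2 these counts were 3 of 17 and 0 of 6. Among the genes with an ISRE, GBP1 in HepG2 and IFIT1 in Huh7 were compared only through their COP1-siRNA values and could only be higher. The genes past 1.5-fold in either line, GBP1, IFITM3, ISG15 and IFI27, each held the element printed above. So did PARP9, DTX3L and IFITM1, which were not past 1.5-fold with COP1-siRNA. An ISRE was in 23 of all 31 genes searched, so most would hold one whatever their change.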

How the data were processed

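Polyadenylated RNA of 4 libraries, 1 per line and siRNA, was sequenced by the authors with a stranded protocol. The submitters' processing notes name FastQC 0.11.7, Trimmomatic 0.38, HISAT2 2.1.0, StringTie 2.1.3b and edgeR, with GRCh38. The authors deposited, per library, the TPM of each gene (normalized to the same total in every library), its FPKM and its coverage, that is, average reads per base with no normalization for depth. The deposited tables hold no read counts, so the number of reads and the precision of a single value are unknown, and no count test could be run.

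Gene numbers were matched to symbols in RefSeq GRCh38.p14 (96.3% of 46427 found), and up to 51 repeated gene numbers per table were summed. Fold changes are log2((TPM + 1)/(TPM + 1)), for genes of at least 1 TPM in at least 1 of the libraries compared, described at 1.5-fold and 2-fold beside the share of all compared genes. Alternatives were a pseudocount of 0.1, no minimum or a minimum of 5 TPM, FPKM, depth-scaled coverage, median-of-ratios scaling, and promoter windows without the 50 bases after the start. The members and gene lists were chosen with earlier results of these data known. Named genes were COP1, all members, list genes past 1.5-fold and a few fixed pathway or family genes, 1 of which is not reported here. Coding sequences of GENCODE 29 were aligned globally for percent identity in place of proteins, and aligned bases were coverage times the length of one GENCODE 29 transcript. Both were chosen after the tables were seen. Hepatocyte, liver tumour, leukocyte, endothelial and fibroblast markers were checked. The liver tumour markers summed to between 583 and 7883 TPM, the endothelial markers to between 0.165 and 7.36 TPM and the fibroblast markers to between 2.58 and 122 TPM. The computation was tested on simulated data with changes larger than 2-fold in genes of at least 5 TPM. Calls at 1.5-fold, or near 1 TPM, were not covered by it. Versions were Python 3.11.15, Biopython 1.88, matplotlib 3.10.9, numpy 2.4.6 and pandas 2.3.3.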

Additional observations from a re-analysis of the deposited data

Results flagged for a closer look

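The 39 genes, the pathway list and the list of other induced genes were searched for differences of opposite sign in the lines. Among their genes compared in both lines, 3 had such differences with at least 1.5-fold in one line. The share of all genes that met this rule was not computed. Of all 11970 genes compared in both lines, 60.2% had the same sign. With 1 library per condition the difference between the lines was not tested. For IFITM3 the log2 fold change with COP1-siRNA was −0.64 in Huh7 and 0.41 in HepG2, a Huh7 minus HepG2 difference of −1.05. For UBE2L6 the values were −0.13 and 0.63, a difference of −0.76. For LGALS3BP they were −0.12 and 0.61, a difference of −0.72.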

How the results depend on the processing

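No difference has a replicate, so no library could be left out, and pairing the libraries by line was not tried. Over the alternatives tried, 65 summary values stayed within 1.5 times (counts) or 0.1 on the log2 scale (medians) of those reported, 8 did not, and none of these summary values changed sign. With FPKM in place of TPM, 1 member in place of 3 was at least 1.5-fold higher in HepG2. In Huh7, 0 in place of 1 was at least 1.5-fold lower. GBP1 in HepG2 was then at 0.58, IFI27 at 0.52 and IFITM3 in Huh7 at −0.57. The added 1 weighs more on the smaller FPKM, mainly for low genes. It had little weight for IFITM3, which was at −0.64 in Huh7 with a pseudocount of 0.1. The median ratio of TPM to FPKM also differed between the Huh7 libraries, at 2.46 with NC-siRNA and 2.36 with COP1-siRNA. With a minimum of 5 TPM, the members at least 1.5-fold higher in HepG2 numbered 1, and those at least 2-fold higher in HepG2 than in Huh7 numbered 7 in place of 12, since fewer genes were compared. With a pseudocount of 0.1, 2 members in place of 1 were at least 1.5-fold higher in Huh7, and 1 in place of 0 was at least 2-fold higher in HepG2, as also with depth-scaled coverage; GBP1 in HepG2 was at 1.99 and 1.08 in these. With no minimum TPM the HepG2 median was 0.0175 in place of 0.14, and the Huh7 median 0 in place of 0.08, because genes near 0 then enter it. Values under about 1 TPM rest on little sequence, and a difference there was not detectable at an unknown depth.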
